A study of Mus musculus with 14 samples.

Results

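Fes, Pik3ap1, Lck and Slfn2 are signalling genes better known in blood cells, and they were followed here in cultures of mouse intestinal tumor epithelium. They are 4 genes of the 55421 listed for set 1, and they were chosen because their levels differed between hairpin and control libraries of these same data. Their fold changes are therefore given as a description, without a test. Set 1 listed all 4 and all 4 passed the filter on low counts. The 17490 genes of set 2 included 3 of them, of which Fes and Pik3ap1 passed the filter and Lck did not, and Slfn2 was not analysed there.

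The cultures were small-intestinal tumor organoids that the labels name APT, whose alleles the labels do not spell out. They carried doxycycline-inducible short hairpin RNAs against Suv4-20h2, listed as Kmt5c, a histone H4 lysine 20 methyltransferase. Hairpin 1 targets exon 4 and was sequenced in 3 libraries next to 3 libraries of control 1, a control hairpin, and these 6 libraries form set 1. Hairpin 2 targets exon 9 and was sequenced in 4 libraries next to 4 libraries of control 2, and these 8 libraries form set 2. Every group, both controls included, was kept for 4 days in 0.5 µg/ml doxycycline. The design text calls each hairpin a clone, no control library serves both sets, and hairpin and set cannot be told apart. The labels do not say that replicates were separate cultures, so the p-values below measure the spread between libraries, which may be technical.

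Total counts ran from 9272134 to 26284079 per library. Kmt5c, the targeted gene, had 53.6 to 64.3 CPM, counts scaled to the size of each library, in hairpin 1 against 67.3 to 75.8 CPM in control 1. In set 2, Kmt5c had 99.3 to 114 CPM in hairpin 2 against 116 to 129 CPM in control 2. The log2 fold change of Kmt5c was -0.31 (SE 0.175) in set 1 and -0.20 (SE 0.0619) in set 2. Its groups did not overlap in either set, where 6.34% of the genes tested in set 1 and 8.42% in set 2 were lower in that way. Across genes, the log2 CPM of libraries of a group correlated at 0.868 to 0.987 in hairpin 1, 0.961 to 0.972 in control 1, 0.978 to 0.996 in hairpin 2 and 0.989 to 0.996 in control 2. Replicate 1 of hairpin 1 stood apart within its group, and the values without it are given below.

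Fes is a cytoplasmic tyrosine kinase with an F-BAR domain, which binds curved membranes, and an SH2 domain, and it is best known in myeloid cells. Pik3ap1 encodes BCAP, an adaptor that, once phosphorylated on tyrosine, brings phosphoinositide 3-kinase (PI3K) to the B cell receptor and that also takes part in Toll-like receptor signalling. Lck is the Src family kinase that phosphorylates the T cell receptor chains and so allows the kinase ZAP-70 to bind. Slfn2 belongs to the Schlafen family and is known in mouse T cells for keeping them quiescent.

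The starts of these genes differ in their sequence, and the 200 bases just before the RefSeq transcription start (GRCm38.p6) are shown so that they can be compared beside the counts. CG dinucleotides are in capitals, and each run reads 5′ to 3′ on the strand of the gene. The windows are chr7:80387947-80388146 (minus) for Fes, chr19:41385103-41385302 (minus) for Pik3ap1, chr4:129573642-129573841 (minus) for the outer of the Lck starts, and chr11:83064912-83065111 (plus) for Slfn2.
Fes: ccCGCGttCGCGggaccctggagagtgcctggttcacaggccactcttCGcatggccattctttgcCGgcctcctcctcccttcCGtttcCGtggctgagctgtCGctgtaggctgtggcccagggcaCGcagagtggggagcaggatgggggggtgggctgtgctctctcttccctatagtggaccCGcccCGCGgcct
Pik3ap1: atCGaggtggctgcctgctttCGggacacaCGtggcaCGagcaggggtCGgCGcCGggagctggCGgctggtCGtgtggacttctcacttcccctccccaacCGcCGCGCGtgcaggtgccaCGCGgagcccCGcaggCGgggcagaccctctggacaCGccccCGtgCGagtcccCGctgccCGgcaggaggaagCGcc
Lck: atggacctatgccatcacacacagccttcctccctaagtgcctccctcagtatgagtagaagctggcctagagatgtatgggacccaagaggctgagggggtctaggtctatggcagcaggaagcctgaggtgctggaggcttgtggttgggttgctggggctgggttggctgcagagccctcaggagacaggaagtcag
Slfn2: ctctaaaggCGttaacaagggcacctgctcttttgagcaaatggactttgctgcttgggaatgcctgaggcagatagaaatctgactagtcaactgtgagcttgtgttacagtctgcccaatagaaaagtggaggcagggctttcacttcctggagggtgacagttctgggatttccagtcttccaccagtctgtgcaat
The Pik3ap1 window held 23 CG dinucleotides, and 91.6% of 32851 RefSeq promoter windows of the same length held fewer. The Fes window held 13, with 72.9% of windows below it. The Slfn2 window held 1, with 10.6% of windows below it. Lck had 0 CG dinucleotides at the outer start and 3 at the inner start, chr4:129558373-129558572 (minus), against a median of 5 over all windows. Fes and Pik3ap1 thus had more CG dinucleotides than the median window, and Lck and Slfn2 had fewer. The letters AGGAAG, looked for on both strands after the sequences had been read and overlapping no CG, occurred in the 300 bases from 250 before to 50 after the start 1 time each in Fes, Pik3ap1 and Slfn2. For Lck they occurred 3 times at the outer start and 1 time at the inner start. They were present in 35.4% of all windows.

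Fes (ENSMUSG00000053158, GRCm38 chromosome 7, 80377756 to 80387946, minus strand) was lower in both hairpins. It had 18.3, 11.9 and 13.1 CPM in the hairpin 1 libraries, against 30.7, 23.9 and 28.0 CPM in the control 1 libraries. The highest hairpin 1 library lay below the lowest control 1 library, although replicate 1 of hairpin 1 came nearest to the controls. The means were 14.4 ± 3.44 CPM in hairpin 1 and 27.5 ± 3.40 CPM in control 1 (SD, n = 3 each), a log2 fold change of -0.93 (SE 0.265), and -1.14 without replicate 1 of hairpin 1. In set 2, Fes had 1.43, 1.66, 1.62 and 1.08 CPM in hairpin 2 against 5.09, 4.51, 3.86 and 3.89 CPM in control 2. Every hairpin 2 library lay far below every control 2 library. The means were 1.45 ± 0.265 CPM in hairpin 2 and 4.34 ± 0.584 CPM in control 2 (SD, n = 4 each), a log2 fold change of -1.56 (SE 0.179). These rest on 13 to 42 counts per library in hairpin 2 and 90 to 112 in control 2. Between libraries of the same replicate number, hairpin 2 over control 2, the log2 ratio of CPM was -1.83, -1.44, -1.25 and -1.85, so Fes was lower at each of the 4 replicate numbers.

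Pik3ap1 (ENSMUSG00000025017, chromosome 19, 41272377 to 41385102, minus strand) was higher in both hairpins, at a far lower level in set 1 than in set 2. It had 1.27, 1.52 and 1.70 CPM in hairpin 1, from 29, 27 and 32 counts, against 0.175, 0.295 and 0.351 CPM in control 1, from 3, 5 and 6 counts. The groups did not overlap, but control 1 was at or just above the floor of 3 counts, and Pik3ap1 passed the filter in set 1 only through the hairpin 1 libraries. The means were 1.49 ± 0.213 CPM in hairpin 1 and 0.274 ± 0.0903 CPM in control 1 (SD, n = 3 each), a log2 fold change of 2.42 (SE 0.481), and 2.52 without replicate 1 of hairpin 1. Summed over libraries, 88 counts in hairpin 1 stood against 14 in control 1, a depth-corrected ratio of 5.41 with an exact 95% interval of 3.06 to 10.3 that covers counting error only. In set 2, Pik3ap1 had 32.5, 33.8, 31.9 and 28.6 CPM in hairpin 2 against 25.4, 24.3, 27.1 and 20.4 CPM in control 2. The lowest hairpin 2 library, replicate 4, lay just above the highest control 2 library, replicate 3, so the gap was narrow. The means were 31.7 ± 2.23 CPM in hairpin 2 and 24.3 ± 2.83 CPM in control 2 (SD, n = 4 each), a log2 fold change of 0.39 (SE 0.096). By replicate number, the log2 ratio of hairpin 2 over control 2 was 0.36, 0.47, 0.24 and 0.48. Replicate 4 was the lowest library of both groups, and its ratio was like that of the others.

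Lck (ENSMUSG00000000409, chromosome 4, 129548344 to 129573641, minus strand) was lower in hairpin 1 and was scarcely counted in set 2. It had 0.526, 1.97 and 1.64 CPM in hairpin 1, from 12, 35 and 31 counts, against 9.08, 7.97 and 4.22 CPM in control 1, from 156, 135 and 72 counts. The groups did not overlap, and the spread within each was wide, with replicate 1 lowest in hairpin 1 and replicate 3 lowest in control 1. The means were 1.38 ± 0.755 CPM in hairpin 1 and 7.09 ± 2.55 CPM in control 1 (SD, n = 3 each), a log2 fold change of -2.36 (SE 0.592), and -1.97 without replicate 1 of hairpin 1. The microRNA gene Mir8119 lies within Lck on the same strand. In set 2, Lck had 3, 2, 0 and 0 counts in hairpin 2 against 3, 1, 2 and 4 counts in control 2. Nearly all of these are at or under the floor of 3 counts, the groups overlap, and no fold change is given.

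Slfn2 (ENSMUSG00000072620, chromosome 11, 83065112 to 83070678, plus strand) was lower in hairpin 1. It had 3.03, 4.83 and 4.03 CPM in hairpin 1, from 69, 86 and 76 counts, against 16.9, 12.2 and 24.1 CPM in control 1, from 291, 207 and 411 counts. Every hairpin 1 library lay well below the lowest control 1 library, and control 1 spread about its mean more than hairpin 1 did. The means were 3.96 ± 0.904 CPM in hairpin 1 and 17.7 ± 5.96 CPM in control 1 (SD, n = 3 each), a log2 fold change of -2.16 (SE 0.374), and -2.003 without replicate 1 of hairpin 1. Schlafen genes are close copies of each other, and Gm20234 runs antisense through Slfn2 while the strand setting of the counting is not given in the sources used here, so its count is uncertain.

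**Figure D1:**
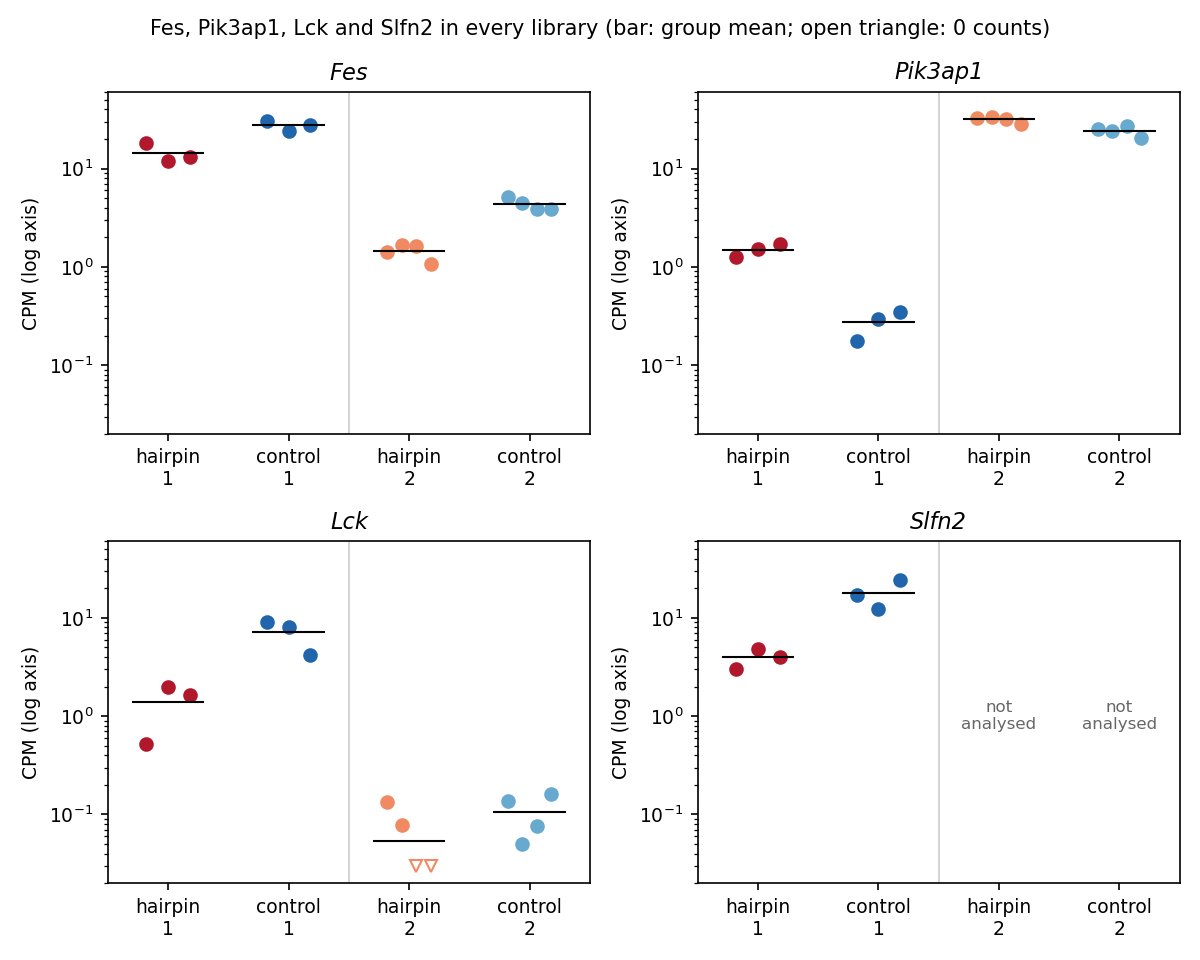
CPM of Fes, Pik3ap1, Lck and Slfn2 on a log axis, 1 point per library, with hairpin 1 and control 1 left of the line, hairpin 2 and control 2 right of it, bars for group means and open triangles for libraries with 0 counts. Fes is lower and Pik3ap1 higher in the hairpin libraries of both sets without overlap, and Lck and Slfn2 are lower in hairpin 1 than in control 1 without overlap.

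In set 1, 3 of these genes were lower and 1 higher without overlap between groups, where 6.34% of the 13540 genes tested were lower and 6.5% higher in that way. In set 2, Fes was lower and Pik3ap1 higher, where 8.42% of the 14126 genes tested were lower and 6.88% higher without overlap. By adjusted p, edgeR's quasi-likelihood test called 0% of the genes tested in set 1 and 6.05% of those in set 2, with 2.04% called higher and 4.01% called lower there. Nothing is read from these shares about the genes themselves, since they were chosen from the same comparisons. In bulk RNA, fewer cells that express a gene and less of its RNA per cell cannot be told apart.

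Per length, in TPM, which divides counts by transcript length as well as library size, the order of the levels differed between the sets. In hairpin 1, Fes averaged 8.29 ± 2.69 TPM, Slfn2 6.82 ± 1.51 TPM, Lck 1.33 ± 0.711 TPM and Pik3ap1 0.767 ± 0.0423 TPM (SD, n = 3). The libraries of Fes and Slfn2 overlapped, at 6.61 to 11.4 and 5.73 to 8.54 TPM, and so did those of Lck and Pik3ap1. In control 1, Slfn2 averaged 29.1 ± 7.62 TPM, Fes 15.0 ± 1.46 TPM, Lck 6.80 ± 2.70 TPM and Pik3ap1 0.136 ± 0.0427 TPM (SD, n = 3). Slfn2 thus stood above Fes in control 1 and beside it in hairpin 1. In set 2, Pik3ap1 averaged 22.0 ± 1.81 TPM in hairpin 2 and 16.6 ± 2.24 TPM in control 2, and Fes averaged 1.10 ± 0.218 TPM in hairpin 2 and 3.25 ± 0.436 TPM in control 2 (SD, n = 4 each). Of the genes tested, 47.4% had a lower TPM than Pik3ap1 in hairpin 2 and 41.6% in control 2, but 4.86% in hairpin 1 and 0.177% in control 1. Pik3ap1 was thus a gene of middling level in set 2 and among the lowest tested in set 1. Fes went the other way, with 32.9% of tested genes below it in hairpin 1 and 48.4% in control 1, against 7.07% in hairpin 2 and 17.3% in control 2. The sets were counted and scaled apart, so no test was set between them.

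The epithelial label was checked against marker genes. All 12 epithelial markers, among them Epcam, Krt19 and Cdh1, were detected, and their summed level was 7544 to 9072 CPM in hairpin 1 against 6929 to 9186 CPM in control 1, and 6368 to 7233 CPM in hairpin 2 against 7676 to 7963 CPM in control 2. In set 2, 4 of the 12 were lower by edgeR's quasi-likelihood test, beside 4.01% of all genes tested, among them the transcription factor Cdx1 (10.9 ± 2.18 CPM in hairpin 2 and 41.3 ± 3.74 CPM in control 2, SD, n = 4 each, log2 fold change -1.92, adjusted p = 2.6e-05). The T cell markers Cd3d, Cd3g and Cd4 were at 0 in every library of set 1, and the whole T cell list of 12 summed to 0.219 to 1.38 CPM in hairpin 1 against 0.236 to 1.17 CPM in control 1. The sums overlapped, and the listed gene with the highest mean was Zap70, at 0.543 CPM in hairpin 1 and 0.623 CPM in control 1. The part of T cells in the Lck values of set 1 was not tested. In set 2 the T cell list held 1 listed gene, Zap70, at 32.1 to 41.9 CPM in hairpin 2 against 28.1 to 37.4 CPM in control 2, while Lck was near 0.

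The B cell marker Pax5 was at 0 in every library of set 1, and the B cell sum of 118 to 161 CPM in hairpin 1 against 91.0 to 126 CPM in control 1 was nearly all Blnk, an adaptor that lies near Pik3ap1 on chromosome 19. In set 2 the B cell sum was 93.3 to 102 CPM in hairpin 2 against 96.5 to 112 CPM in control 2, again nearly all Blnk, while Pik3ap1 was higher in hairpin 2. Myeloid markers summed to 46.0 to 67.2 CPM in hairpin 1 against 35.1 to 70.3 CPM in control 1, and to 53.4 to 61.3 CPM in hairpin 2 against 61.1 to 70.4 CPM in control 2. Most of this was Cd14 and Cd68. The next highest listed markers averaged 0.487 CPM in set 1 (Mpeg1) and 0.205 CPM in set 2 (Fcer1g). Csf1r had at most 0.0562 CPM in a library of set 1 and 0.0454 CPM in set 2. The part of the myeloid sum in the Fes values of set 2 was not tested. Of the 6 NK cell markers, 4 were at 0 in set 1, and the list summed to at most 0.053 CPM in hairpin 1 and 0.0586 CPM in control 1. Pan-leukocyte markers summed to 57.9 to 92.3 CPM in hairpin 1 against 40.4 to 61.6 CPM in control 1, mostly Lcp1 outside replicate 1 of hairpin 1. In that replicate, the 92.3 CPM was mostly Cd53, at 88.2 CPM, with Lcp1 at 2.54 CPM. Ptprc was also highest there in set 1, at 0.877 CPM. In set 2 the pan-leukocyte sum was 2.13 to 3.74 CPM in hairpin 2 against 3.21 to 5.06 CPM in control 2, with Rac2 at 0. Tuft cell markers, given because tuft cells of the gut share several blood cell genes, summed to 30.8 to 61.4 CPM in hairpin 1 against 39.0 to 48.0 CPM in control 1. Of these, Alox5, Rgs13, Il25 and Chat were at 0 in set 1. Of the 5 tested there, 1 was higher and 1 lower without overlap, beside 6.5% and 6.34% of all genes. Ptgs1 averaged 2.78 CPM in hairpin 1 and 1.74 CPM in control 1, and Trpm5 0.402 and 1.04 CPM. In set 2 the tuft cell markers summed to 341 to 505 CPM in hairpin 2 against 308 to 359 CPM in control 2, mostly Avil and Ptpn6. Avil averaged 303 CPM in hairpin 2 and 242 CPM in control 2, and Ptpn6 86.1 and 79.3 CPM. The defining markers Dclk1, Trpm5 and Pou2f3 were near 0 in set 2, with at most 0.0446, 0.420 and 0.251 CPM in a library. Unlike the sum, Trpm5 and Pou2f3 averaged lower in hairpin 2, at 0.212 and 0.0223 CPM against 0.351 and 0.145 CPM in control 2. Dclk1 averaged 0.0111 CPM in hairpin 2 and 0.0100 CPM in control 2. The part of the tuft cell markers in the Pik3ap1 values was not tested.

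**Figure D2:**
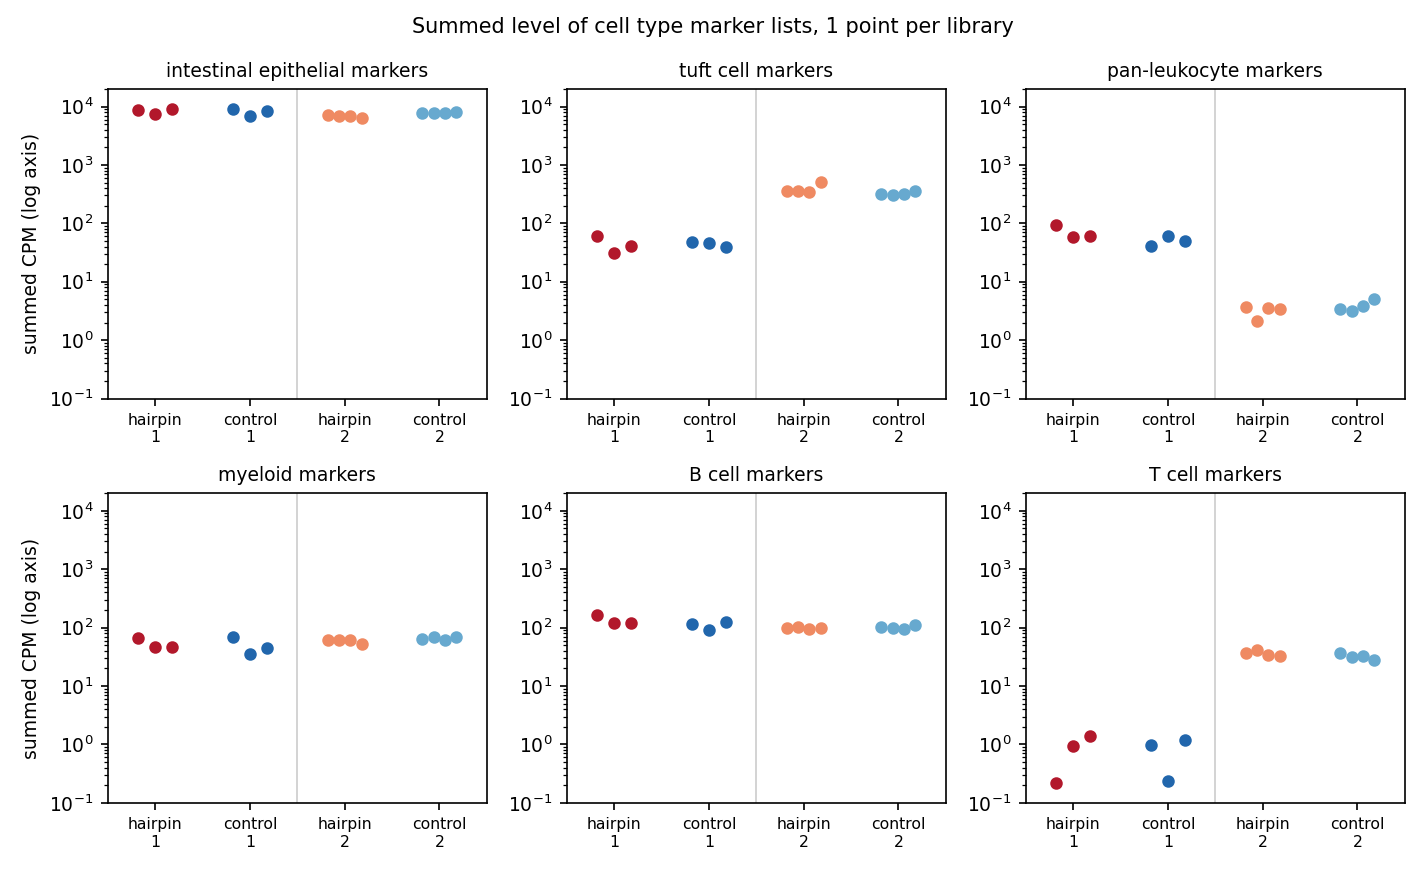
Summed CPM of 6 cell type marker lists on a log axis, 1 point per library, with each hairpin group left of its control. Epithelial markers sum to 6368 CPM or more in every library, T cell markers stay between 0.219 and 1.38 CPM in set 1, and the T cell points of set 2 are Zap70 alone.

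The genes that work beside these 4 were then examined, from lists of kinases, adaptors, PI3K genes, Toll-like receptor genes and Schlafen genes that hold 106 genes besides them. In set 1, 68 were tested and 0 passed edgeR's quasi-likelihood test, as did 0% of all genes, while 2 had an unadjusted p under 0.05, beside 5.41% of all genes, and DESeq2 called 0. Their median log2 fold change was 0.20, against 0.03 over all genes tested. In set 2, 68 were tested and 1 passed, where 6.05% of all genes did, and 14 had an unadjusted p under 0.05, beside 19.8% of all genes. Their median was 0.03, against 0.00 over all genes. With the replicate number as a block, 16 of the 68 passed in set 2, 12 of them higher and 4 lower, or 23.5% beside 20.4% of all genes (10.2% higher and 10.1% lower). Leaving out replicate 4 of hairpin 2 gave 5, where the genes called over all rose from 854 to 1409. Leaving out replicate 3 or replicate 4 of control 2 gave 2 each, where 610 and 674 of all genes were called.

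Among the tyrosine kinases, the levels of Fer, the only close relative of Fes, overlapped between hairpin 1 and control 1. Fer had 15.9 ± 7.52 CPM in hairpin 1 and 11.99 ± 1.29 CPM in control 1 (SD, n = 3 each, log2 fold change 0.41, and -0.05 without replicate 1 of hairpin 1). In set 2, Fer had 23.4 ± 2.49 CPM in hairpin 2 and 19.6 ± 1.76 CPM in control 2 (SD, n = 4 each, log2 fold change 0.25, edgeR adjusted p = 0.18, and 0.017 with the replicate block). Of the Src family kinases and their regulators, 0 of 9 passed in set 1 and 0 of 10 in set 2. Csk, the kinase that holds Src family members inactive, was at -0.47 in set 1, and Yes1, a widely expressed Src family kinase, at 0.51. In set 2, Yes1 was at 0.26 (edgeR adjusted p = 0.076, and 0.0039 with the block) and Pag1, which anchors Csk at the membrane, at -0.20. Frk, a Src-related kinase of epithelia, was at 0.26 in set 1 and at -0.23 in set 2. Syk, the kinase that acts beside BCAP downstream of the B cell receptor, had 47.6 ± 11.4 CPM in hairpin 2 and 30.5 ± 8.60 CPM in control 2 (SD, n = 4 each), a log2 fold change of 0.64 with an edgeR adjusted p of 0.099. With the replicate block Syk was at 0.65 (edgeR adjusted p = 7.0e-06). In set 1 Syk was at 0.19, with values from -0.22 to 0.70 when leaving out each library in turn. Zap70, which binds the receptor chains that Lck phosphorylates, was at 0.16 in set 2, and Tec, a kinase of the same list, at 0.20 in set 1.

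Of the adaptors that work with BCAP at antigen receptors, 0 of 18 passed in each set. Plcg1, a phospholipase C, had the smallest p in set 1, with 33.6 ± 5.44 CPM in hairpin 1 and 54.9 ± 2.60 CPM in control 1 (SD, n = 3 each, log2 fold change -0.71, edgeR adjusted p = 0.80). It was at -0.70 with an adjusted p of 0.022 in the edgeR model of all 14 libraries. Dok3, an inhibitory adaptor, was at -2.28 in set 1 with a wide spread in control 1, from 0.582 to 9.13 CPM, and at -0.72 without replicate 3 of control 1. In set 2, Grap, an adaptor of the Grb2 family, was at -1.22 (edgeR adjusted p = 0.055, and 0.021 with the replicate block), from 0.311 ± 0.121 CPM in hairpin 2 and 0.772 ± 0.171 CPM in control 2 (SD, n = 4 each). Grap passed the filter on low counts through control 2, where it was higher, so its p-values are a description only. Dok1, another inhibitory adaptor, was at -0.31 (edgeR adjusted p = 0.060, and 0.0071 with the block).

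Of the PI3K and Akt genes, which act after BCAP, 0 of 21 passed in each set. In set 1, the kinase gene Akt1 was at 0.50 and Pdpk1, whose product phosphorylates Akt, at 0.97 with a wide spread in hairpin 1, from 41.5 to 122 CPM. Without replicate 1 of hairpin 1, Pdpk1 was at 0.32. In set 2, the insulin receptor substrates Irs2 and Irs1 were at 0.32 and 0.29 (edgeR adjusted p = 0.054 and 0.056, and 7.5e-04 and 0.0066 with the replicate block). With the block, 6 of the 21 rose and 0 fell by edgeR's quasi-likelihood test, Irs1 and Irs2 among them, where 10.2% of all genes rose and 10.1% fell.

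Of the Toll-like receptor genes, 0 of 15 passed in set 1 and 1 of 14 in set 2. That gene was Tlr1, a receptor for bacterial lipopeptides that pairs with Tlr2. It fell to 0.639 ± 0.228 CPM in hairpin 2, against 3.68 ± 0.377 CPM in control 2 (SD, n = 4 each), a log2 fold change of -2.60 (SE 0.218, edgeR adjusted p = 1.1e-04). The libraries ran from 0.490 to 0.974 CPM in hairpin 2 against 3.18 to 4.06 CPM in control 2, so the groups were far apart. In set 1, Tlr1 had 13.1 ± 7.05 CPM in hairpin 1 and 9.45 ± 3.02 CPM in control 1 (SD, n = 3 each, log2 fold change 0.47), and the groups overlapped. Tirap, an adaptor of Tlr2 and Tlr4, was at 0.60 in set 1, and Tlr4, the receptor for lipopolysaccharide, at 0.39.

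The Schlafen family gave 1 tested gene in each set besides Slfn2. Slfn4 had 0.540 ± 0.311 CPM in hairpin 1 and 1.68 ± 1.19 CPM in control 1 (SD, n = 3 each, log2 fold change -1.64), and its libraries overlapped, unlike those of Slfn2. Slfn5 had 1.17 ± 0.816 CPM in hairpin 2 and 0.329 ± 0.169 CPM in control 2 (SD, n = 4 each, log2 fold change 1.62, edgeR adjusted p = 0.18, and 0.046 with the replicate block). Both are low, and close copies in the family make their counts uncertain. In control 2, Slfn5 lay near the filter on low counts, so its p-values are a description only.

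**Figure D3:**
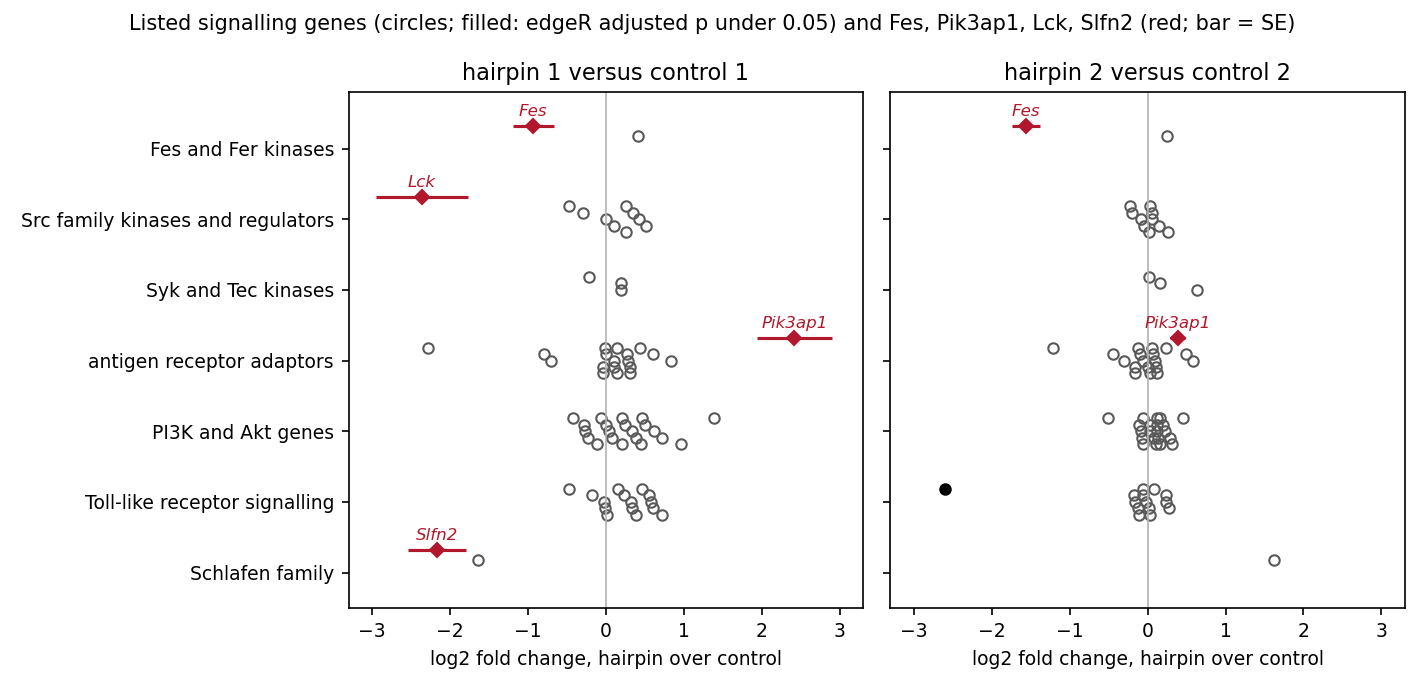
Log2 fold change, hairpin over control, of every tested gene of 7 lists in set 1 (left) and set 2 (right), with Fes, Pik3ap1, Lck and Slfn2 as red diamonds with SE bars. The filled circle in set 2 is Tlr1 at -2.60, and 0 circles are filled in set 1.

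The nearest tested genes on the chromosome were compared with each of the 4 genes, 8 neighbours each. Of 32 neighbours in each set, 0 passed edgeR's quasi-likelihood test in set 1 and 0 in set 2, where 0% and 6.05% of all genes passed. With the replicate block 6 of the 32 passed in set 2, where 20.4% of all genes did. DESeq2 called 1 in set 2, where it called 8.12% of all genes, and 0 in set 1. Leaving out replicate 4 of hairpin 2 gave 3, where the genes called over all rose from 854 to 1409. The 8 neighbours of Fes in set 2 had a median log2 fold change of -0.06 and ran from -0.11 to 0.02, against -1.56 for Fes. Furin, a protease gene whose near end lies 0.639 kb from Fes, had 203 ± 3.99 CPM in hairpin 2 and 204 ± 6.53 CPM in control 2 (SD, n = 4 each, log2 fold change -0.01), and Man2a2, on the other side, was at -0.11. In set 1 the neighbours of Fes had a median of 0.11 and ran from -0.48 to 0.49.

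The neighbours of Pik3ap1 in set 2 had a median of 0.23 and ran from -0.06 to 0.63, so the 0.39 of Pik3ap1 lay within their range, while all genes tested had a median of 0.00. Tm9sf3, 8.38 kb from Pik3ap1, was at 0.20 (edgeR adjusted p = 0.054, and 0.0062 with the replicate block), and Lcor, a nuclear receptor corepressor gene on the other side, at 0.25. In set 1 the neighbours had a median of 0.08 and ran from -0.46 to 0.47, against 2.42 for Pik3ap1. The neighbours of Lck in set 1 ran from -0.51 to 0.75, with the deacetylase gene Hdac1 at 0.32 and the translation initiation factor gene Eif3i at -0.25, against -2.36 for Lck. Those of Slfn2 ran from -1.64 to 0.39, with Nle1 at -0.20 (0.04 without replicate 1 of hairpin 1) and Slfn4 at -1.64, against -2.16 for Slfn2.

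**Figure D4:**
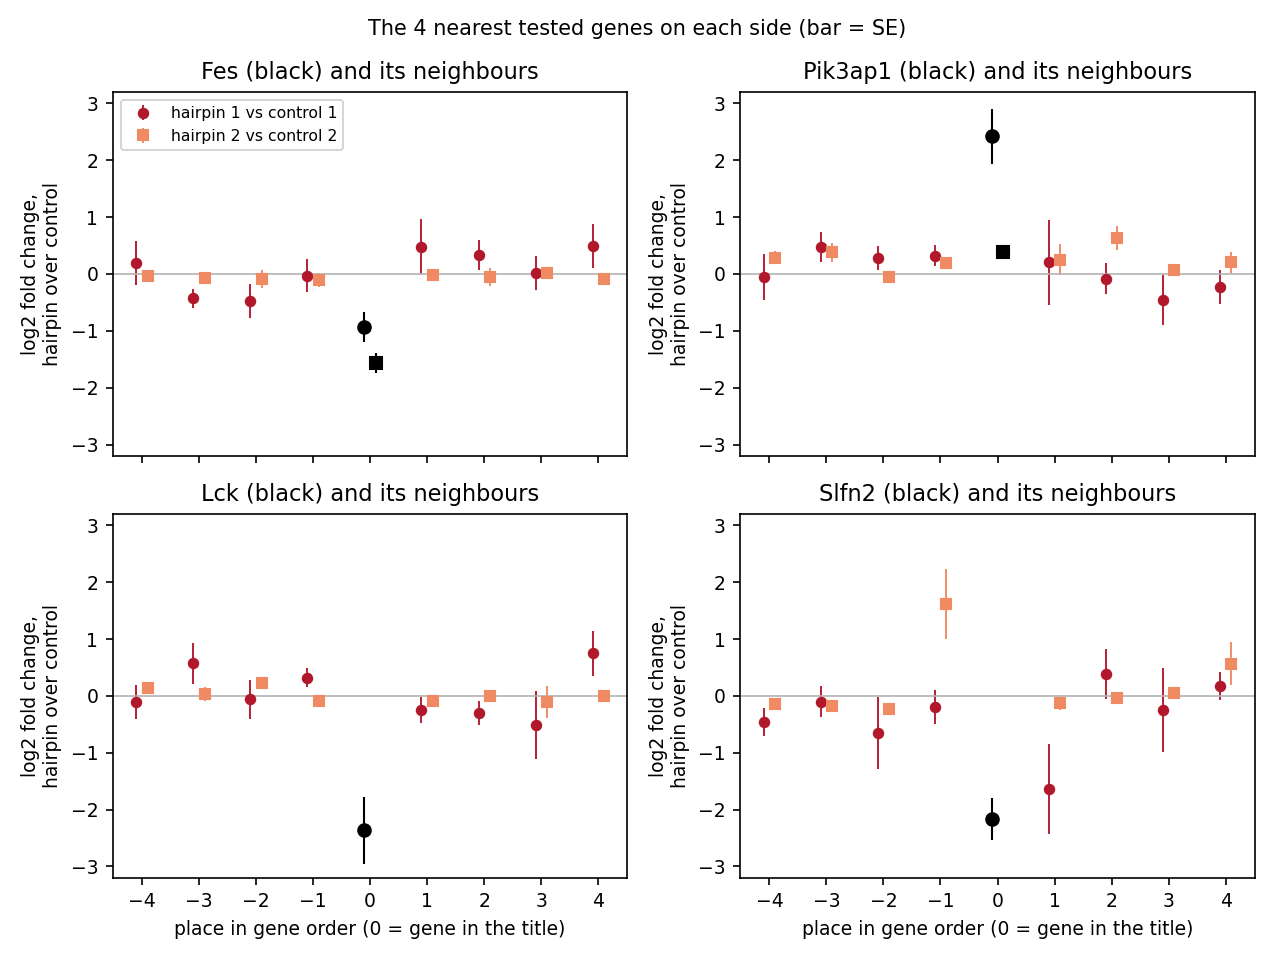
Log2 fold change, hairpin over control, with SE bars, of the 4 nearest tested genes on each side of Fes, Pik3ap1, Lck and Slfn2 (black), by place in gene order, with circles for set 1 and squares for set 2. The 8 neighbours of Fes lie between -0.11 and 0.02 in set 2. Of the neighbours of Pik3ap1 there, only Slit1, a low gene at 0.63, lies above the 0.39 of Pik3ap1.

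The genes whose levels followed each of the 4 most closely over the libraries of a set were found by the root mean square difference of centred log2 CPM, where a smaller value is a closer likeness. For Fes these were Card14 (0.131), Crocc (0.147) and Sprr2a3 (0.151) over the 6 libraries of set 1, and Baiap2l2 (0.0925), Nlrx1 (0.134) and Cxcl2 (0.147) over the 8 of set 2. Sprr2a3 has near copies and its count is uncertain. For Pik3ap1 they were Tmem184c (0.425), Itga5 (0.452) and Slc41a2 (0.490) in set 1, and Pax9 (0.0462), Atad2b (0.0556) and Rraga (0.0583) in set 2. For Lck in set 1 they were Rassf2 (0.349), Myl7 (0.425) and Snph (0.475), and for Slfn2 Slc6a7 (0.448), Vwf (0.451) and Nt5dc2 (0.459). Candidates also had to reach a minimum spread over the libraries, set from that of the compared gene. They numbered 6699 in set 1 and 878 in set 2 for Fes, and 2882 and 5883 for Pik3ap1. For neither did a gene appear among the 3 closest in both sets. That is the likely outcome with so many candidates, and nothing is read from it.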

How the data were processed

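Stranded poly(A) libraries were made, per the labels' protocols. The values are raw counts per gene as the authors deposited them, a table for each library, from STAR and featureCounts on GRCm38 after bcl2fastq 2.20 and FastQC; DESeq2 is named too, per the submitters' processing notes. No source used here gives other versions, the annotation or the strand setting. Symbols and positions came from GENCODE M21, which matched 55240 genes of set 1 and 17471 of set 2.

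The 4 genes and all gene lists were chosen with earlier results of these data known. Each set was fitted alone over all genes by the quasi-likelihood test of edgeR (version 4.0.16, in R 4.3.3) on counts kept by filterByExpr and scaled by TMM, with p adjusted after Benjamini and Hochberg and called under 0.05, and the script was tested on simulated data. CPM used TMM-scaled totals, TPM used merged exon lengths, and log2 CPM took a prior count of 2. SE is the log2 fold change over the square root of F. Besides the 4 genes, those named are the calls of each list (at most 6), or its 2 smallest p where none passed, Fer, Frk, tested Schlafen genes, the nearest neighbour on each side and the 3 closest in likeness, taken from genes that averaged 5 CPM or more, or 1 CPM where the compared gene was below 5. Cell type markers, genes called in an alternative, and those at the ends of a range were named after their values were seen. Some genes are not reported here. Promoter windows came from RefSeq (GRCm38.p6).

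In set 2, the deviations of same-numbered libraries correlated at 0.249, 0.153, 0.247 and 0.598, all over 0.1, and the numbers were taken to pair libraries. Differently numbered libraries correlated at 0.108 to 0.216 among replicates 1 to 3, and at -0.391 to -0.268 where 1 of them was replicate 4. Only replicate 4 thus stood apart, and neither the data nor the labels show pairs among replicates 1 to 3. Results with the replicate block rest on this pairing. In set 1 the same-numbered correlations were 0.231, -0.017 and 0.269, and the numbers were not taken to pair libraries. Within sets no libraries were duplicates: the lowest chi-square per gene was 24.0 and 3.01. Alternatives were DESeq2 size factors, no filter, the DESeq2 1.42.0 Wald test, the replicate block, a model of all 14 libraries and leaving out each library. Leaving out both replicate 4 libraries of set 2, and each library in the Tlr1 difference, were added after the data were seen. Python 3.11.15, pandas 2.3.3, scipy 1.17.1 and matplotlib 3.10.9 made tables, intervals and figures.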

Additional observations from a re-analysis of the deposited data

Results flagged for a closer look

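Tlr1 differed between the hairpins: its log2 fold change for hairpin 2 minus that for hairpin 1 was -3.05 (SE 0.561, edgeR adjusted p = 0.033) in the model of all 14 libraries, where 62 of 15043 genes, or 0.412%, passed. Leaving out each library in turn gave -3.47 to -2.65 with adjusted p of 2.8e-04 to 0.105, and 3 of the 14 fits passed. Hairpin and set cannot be told apart.

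The replicate 4 libraries of set 2 lay apart from the rest of their groups in 3 summed marker levels. Tuft cell markers, mostly Avil and Ptpn6, summed to 505 CPM in replicate 4 of hairpin 2 and to 359 CPM in replicate 4 of control 2, each the highest of its group. Myeloid markers summed to 53.4 CPM in replicate 4 of hairpin 2, the lowest of its group. The rule was Dixon's ratio, the gap to the nearest library over the range of the group, above 0.829 for 4 libraries. Chance alone marks about 1 in 20 groups of this size. Sums of many lists and groups were looked at, and these flags share a list or a replicate number. Their number is therefore not weighed against chance. Pik3ap1 was lowest in replicate 4 of both groups, and the link was not tested.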

How the results depend on the processing

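All 71 log2 fold changes of the 4 genes under alternatives kept their direction and moved by less than 1 SD between replicates. Leaving out each library gave -1.14 to -0.81 for Fes, 2.21 to 2.66 for Pik3ap1, -2.71 to -1.97 for Lck and -2.37 to -1.86 for Slfn2 in set 1, and -1.65 to -1.47 for Fes and 0.31 to 0.44 for Pik3ap1 in set 2. Slfn2 could not enter the model of all 14 libraries.

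Counts of genes past the threshold moved far more. In set 1, 0 genes passed, against 18 with DESeq2, 187 in the model of all 14 libraries and 0 to 1 when leaving out each library (1 without replicate 1 of hairpin 1), and that model called 1 listed signalling gene, Plcg1. In set 2, 854 genes passed, against 1321 with DESeq2, 120 in the model of all 14 libraries, 2880 with the replicate block and 2396 without both replicate 4 libraries. Leaving out each library gave 453 (control 2 replicate 2) to 1409 (hairpin 2 replicate 4), with 516 without replicate 1 of control 2 and 526, 473 and 564 without replicates 1, 2 and 3 of hairpin 2. Listed signalling genes past the threshold in set 2 numbered 1, against 7 with DESeq2, 16 with the block, 13 without both replicate 4 libraries and 1 to 5 when leaving out each library. Neighbours numbered 0, against 1, 6, 6 and 0 to 3 in the same order. The causes were not tested. Low counts limit the precision of Lck in set 2 and of Pik3ap1 in control 1, which had at most 4 and 6 counts in a library.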
